A study of Danio rerio with 4 samples.

Results

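The genes described here encode the proteins that join liver cells to one another: claudins, occludins and their zonula occludens scaffolds in tight junctions, cadherins with their alpha and delta catenins in adherens junctions, and connexins in gap junctions. They are all genes whose symbol begins with cldn, tjp and a digit, ocln, cdh and a digit, cx and a digit, gja to gjd and a digit, ctnna or ctnnd, with the vascular cadherin gene cdh5 left out. This naming rule used no measured value and gave 105 of 32058 rows in the count table. Livers came from zebrafish larvae (label AB) that received no food and were treated from 4 dpf for 48 h, either with DMSO as the vehicle or with 5 μM lipofermata, a small molecule inhibitor of the fatty acid transporter FATP2. Livers were dissected at 6 dpf, and each of the 2 replicates per group pooled 30 larvae, so the whole organ with all its cell types was measured. The label AB names no transgene, but a row for an EGFP reporter held 5879 to 14749 counts in every library. No source used here says whether replicates came from separate clutches, so the spread between them may be partly technical.

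Tight junctions seal the space between epithelial cells, and in the liver they close the bile canaliculus off from the blood side of the hepatocyte. Claudins set what passes through the seal, and zonula occludens proteins tie them to actin. Cadherins hold neighbouring cells together through calcium-dependent contacts, with alpha- and beta-catenin as the link to actin and delta-catenin as the factor that keeps cadherins at the membrane. Connexins form channels that pass small molecules between the cytoplasms of coupled hepatocytes.

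The 4 libraries held 14997821 to 19368695 counts. Values are CPM, the counts of a gene relative to the total of its library, after TMM scaling (trimmed mean of M-values). Differences are log2 fold changes of lipofermata over vehicle with their standard errors (SE), and were tested by edgeR's quasi-likelihood test, with p-values adjusted by Benjamini-Hochberg over 14925 genes and a threshold of 0.1. Over all these genes 33.5% passed, and in 65.2% the 2 libraries of one group lay apart from those of the other. With 2 pools per group a two-sided exact permutation test cannot go below p = 0.333, so each p rests on a spread shared across genes. The dissected tissue held all 12 hepatocyte markers examined, summed at 76979 to 132902 CPM per library, and intestine markers at 30.9 to 33.9 CPM (fabp6 at 0 counts). Pancreas markers summed to 3545 and 8099 CPM with vehicle and 9417 and 4265 CPM with lipofermata. The pancreas part thus differed within each group, and its share in the junction genes was not tested.

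Of the 105 junction genes, 47 had enough counts to be tested, 33 had 2 to 33 counts in all and were not tested, and 25 had no count in any library. In the vehicle group, 23 of them had a mean of at least 10 CPM. These levels follow transcript length as well as abundance, and since no transcript lengths were used they do not order the genes by abundance. By the number of counts, 8 genes made up 71.3% and 70.0% of the junction counts with vehicle and 75.3% and 76.7% with lipofermata. They were cdh2, cldn15lb, cx28.9, cdh1, cx32.3, cldnc, ctnna1 and ctnnd1, so that the claudins, cadherins, catenins and connexins were each represented. Among the genes with no count were cldn18, cldn19, cldn10a and cldn10b, cdh15 and cdh16, and the connexin gene cx47.1. The genes cx27.5 and cx31.7, which RefSeq now names gjb1a and gjb1b, also had 0 counts in every library, which allows up to 0.150 to 0.245 CPM (3 counts in a library). Their mammalian counterpart GJB1 encodes connexin 32, the main gap junction protein of mammalian hepatocytes.

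**Figure D1:**
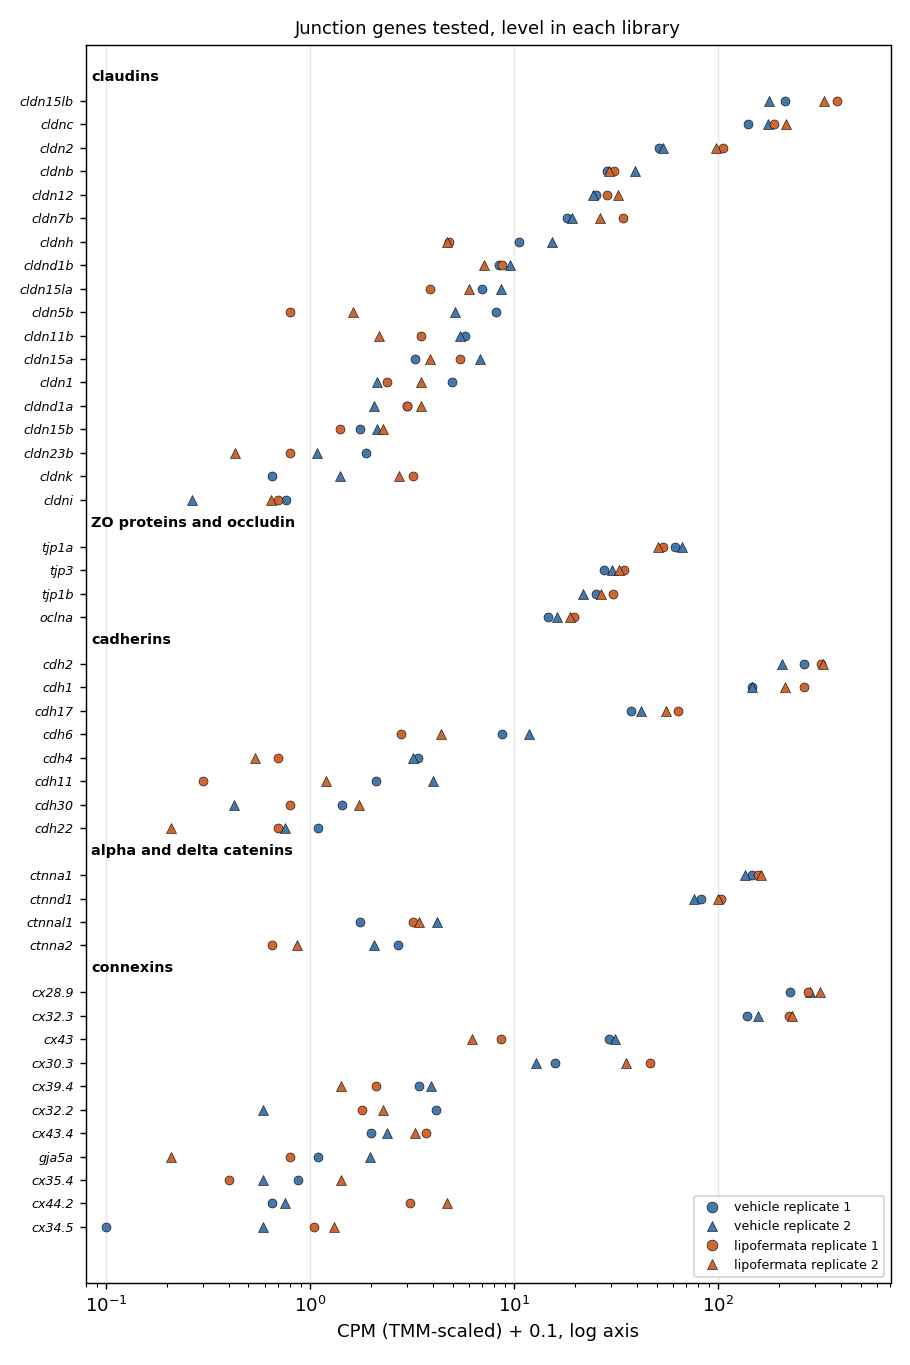
Level of 45 of the 47 tested junction genes in the 4 libraries, as TMM-scaled CPM plus 0.1 on a log axis, with circles for replicate 1, triangles for replicate 2, blue for vehicle and orange for lipofermata. The orange points of cx43, cdh4 and cldn5b lie left of the blue ones, and those of cldn2, cx30.3 and cx44.2 lie right of them.

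After lipofermata, 12 of the 47 tested junction genes rose and 10 fell, and 25 did not pass. The called share was 46.8%, beside 33.5% of all genes tested (16.6% higher and 16.9% lower). In 21 tested junction genes both lipofermata libraries lay above both vehicle libraries, in 15 below, and in 11 the groups overlapped. Over all genes tested, 32.2% lay above and 32.9% below in this way. The median log2 fold change was 0.22, beside -0.03 over all genes. Grouped by the vehicle mean, 10 of the 23 genes at 10 CPM or more rose and 4 fell, beside 18.5% and 23.2% of all genes tested at that level. Of the 17 genes at 1 to 10 CPM none rose and 6 fell, beside 13.7% and 13.8% of all genes. Of the 7 genes under 1 CPM 2 rose and none fell, beside 21.5% and 1.9% of all genes. Since the vehicle level enters the fold change as well, these counts are a description. A gene under 1 CPM with vehicle often has enough counts to be tested only through its lipofermata libraries, which favours rises in that group. Grouped by the mean over all 4 libraries, 4 of the 7 genes at 100 CPM or more rose and none fell, beside 17.9% and 30% of all genes. Of the 14 genes at 10 to 100 CPM 6 rose and 2 fell, beside 22.4% and 18.5% of all genes. Of the 20 genes at 1 to 10 CPM 2 rose and 8 fell, beside 13.5% and 14.9% of all genes. Summed over all 105 genes, the level was 1900 and 1934 CPM with vehicle and 2536 and 2463 CPM with lipofermata. Scaling by total counts alone adds 0.34 to 0.41 to the log2 fold change of each tested junction gene. It adds 0.39 to the median of all genes. Then 21 junction genes passed as higher and 7 as lower (75.0% of the called genes higher, in place of 54.5%). Over all genes tested, 81.2% of the called genes were then higher, in place of 49.5% with TMM. Directions below hold within a liver, against its other genes. Without lipofermata replicate 1, 4 junction genes rose and 8 fell, and without lipofermata replicate 2, 7 rose and 7 fell.

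**Figure D2:**
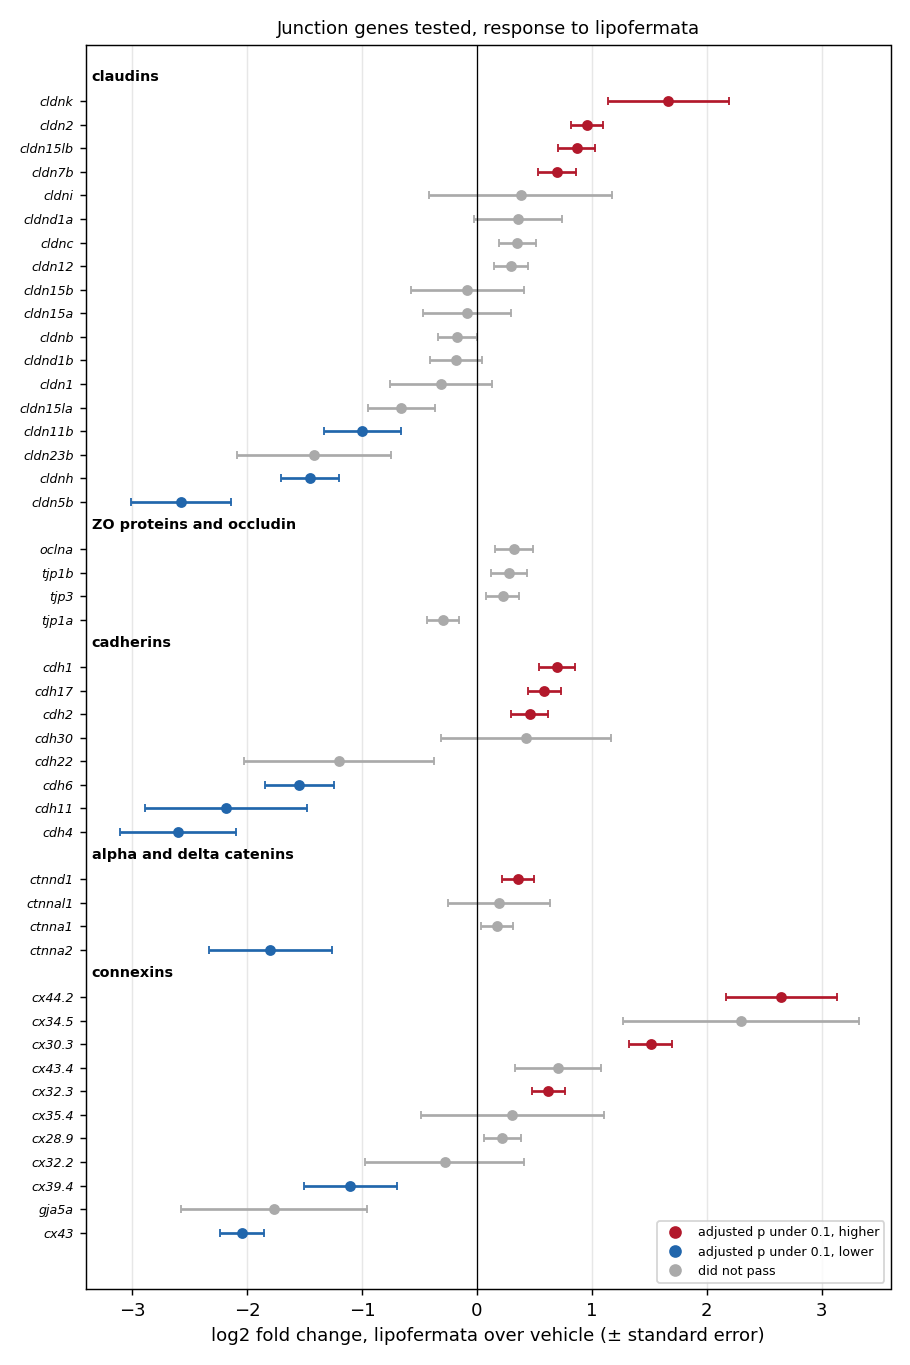
Log2 fold change (lipofermata over vehicle) of 45 tested junction genes with its standard error, from edgeR, grouped by family. Red marks 11 genes that rose and blue 9 that fell at an adjusted p under 0.1, and grey the 25 that did not pass.

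The claudin gene cldn15lb and the pore claudin gene cldn2 rose, and the endothelial claudin gene cldn5b fell. Of 34 claudin genes, 18 were tested, of which 4 rose, 3 fell and 11 did not pass, and their median was -0.08 on the log2 scale. The called share was 38.9%, near the 33.5% of all genes tested. The gene cldn15lb (ENSDARG00000100844), which zebrafish need to shape their bile ducts, had 212 and 178 CPM with vehicle and 384 and 329 CPM with lipofermata. Both lipofermata libraries were above both vehicle libraries, and the log2 fold change was 0.87 (SE 0.16, adjusted p = 0.0035). The gene cldn2 (ENSDARG00000044387), which encodes a pore-forming claudin permeable to cations and water, had 51.3 and 53.4 CPM with vehicle and 106 and 97.2 CPM with lipofermata. It was 1.94-fold higher, with log2 fold change 0.96 (SE 0.14, adjusted p = 0.0011), with the replicates of each group close together. Its span overlaps rbm41 in RefSeq, and since the strand setting of the counting is not given, their reads cannot be told apart. The epithelial claudin gene cldn7b (ENSDARG00000014047) went from 18.1 and 19.1 CPM to 33.9 and 26.3 CPM, with log2 fold change 0.70 (SE 0.17, adjusted p = 0.014), and did not pass without lipofermata replicate 1 (0.50). At a far lower level, cldnk (ENSDARG00000042357), a claudin of myelin in zebrafish, had 0.554 and 1.31 CPM with vehicle and 3.10 and 2.63 CPM with lipofermata, from 26 and 110 counts. On its vehicle libraries alone this gene would not have had enough counts to be tested. Its log2 fold change was 1.67 (adjusted p = 0.041), and leaving out vehicle replicate 1 (1.14), lipofermata replicate 1 (1.53) or lipofermata replicate 2 (1.77) ended the call. The gene cldnc (ENSDARG00000015955, now cldn3d in RefSeq) had 141 and 176 CPM with vehicle and 189 and 215 CPM with lipofermata, and did not pass the test (log2 fold change 0.35, SE 0.16, adjusted p = 0.13). Its libraries did not overlap between the groups, but the higher vehicle library lay close to the lower lipofermata library.

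The claudin with the largest fall was cldn5b (ENSDARG00000014059), whose product seals the endothelium of blood vessels. It had 8.09 and 5.06 CPM with vehicle and 0.700 and 1.53 CPM with lipofermata, with log2 fold change -2.57 (SE 0.43, adjusted p = 0.0023). The gene cldnh (ENSDARG00000069503, now cldn3c) had 10.4 and 15.2 CPM with vehicle and 4.70 and 4.6 CPM with lipofermata, with log2 fold change -1.45 (SE 0.25, adjusted p = 0.0027). In RefSeq's gene order cldnh, cldnc and cldnb lie within a stretch of 5 genes together with cldnd, which had 0 counts. Of these neighbours cldnh fell and the other two tested did not pass, and the ratio of cldnh to cldnc counts was 0.0741 and 0.0864 with vehicle and 0.0249 and 0.0214 with lipofermata, a contrast that no scaling changes. The gene cldn11b (ENSDARG00000030723), a relative of the mammalian claudin of myelin and testis, went from 5.66 and 5.31 CPM to 3.40 and 2.08 CPM, a log2 fold change of -1.0 (adjusted p = 0.054). It did not pass with DESeq2 (-0.99), with total-count scaling (-0.61) or without lipofermata replicate 2 (-0.69). The intestinal claudin gene cldn15la had 6.87 and 8.49 CPM with vehicle and 3.80 and 5.92 CPM with lipofermata and did not pass (log2 fold change -0.66, adjusted p = 0.13). It passed with the replicate block (-0.69), with no filter (-0.64) and without vehicle replicate 1 (-0.80). With limma voom (-0.68) and without lipofermata replicate 2 (-1.01) it lay at the threshold. Over the left-out libraries it ran from -1.01 to -0.37. The remaining claudins that did not pass had log2 fold changes of -1.42 (cldn23b) to 0.38 (cldni, which turned to -0.21 without vehicle replicate 2). The epidermal claudin gene cldne was too low for the count filter, with 2 counts in the vehicle group and 22 in the lipofermata group. This is 8.70-fold after scaling (95% exact counting interval 2.14 to 76.4), an interval that leaves out the spread between replicates. In edgeR with no filter cldne did not pass (log2 fold change 2.93, adjusted p = 0.20). It passed without vehicle replicate 2 (6.46), where the vehicle library that remained had 0 counts.

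**Figure D3:**
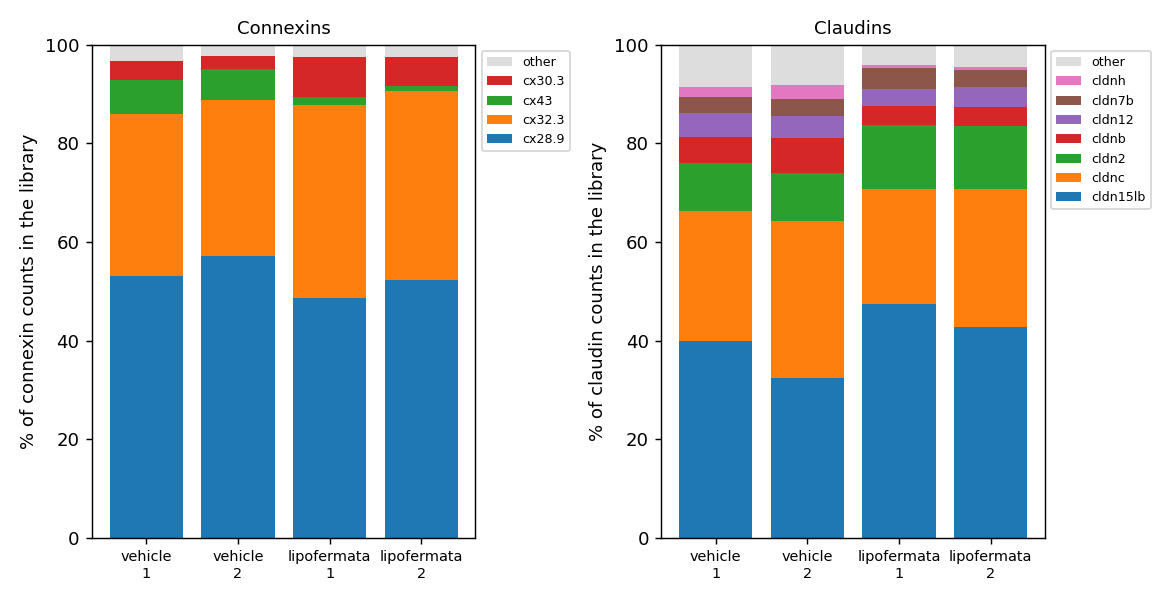
Share of each gene in the connexin counts (left) and the claudin counts (right) of each library, in percent, without correction for transcript length. The green band of cx43 is narrower and the red band of cx30.3 wider in both lipofermata libraries than in both vehicle libraries, and among the claudins the shares of cldn15lb and cldn2 are larger.

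Of 7 genes for zonula occludens proteins and occludins, the scaffolds and a membrane protein of the tight junction, 6 were tested. Of these, tjp1a, tjp1b, tjp3 and oclna did not pass, although tjp1a (-0.34) and tjp1b (0.41) did without vehicle replicate 1. With total-count scaling tjp1b (0.66), tjp3 (0.62) and oclna (0.71) passed as higher. The paralogs of TJP1 (ZO-1) gave a ratio of tjp1b to tjp1a of 0.411 and 0.328 with vehicle and 0.572 and 0.524 with lipofermata. Neither gene passed the test with all libraries and TMM scaling. The gene tjp1a (ENSDARG00000077506) had 61.4 and 66.3 CPM with vehicle and 53.5 and 50.8 CPM with lipofermata (log2 fold change -0.29, adjusted p = 0.15, and 0.10 with total-count scaling). The gene tjp3 (ENSDARG00000002909), which encodes ZO-3, had 27.6 and 30.1 CPM against 34.6 and 32.8 CPM (log2 fold change 0.23, adjusted p = 0.28), and the occludin gene oclna had a log2 fold change of 0.32 (adjusted p = 0.18).

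The genes of E-cadherin, N-cadherin and cdh17 rose, and those of R-cadherin, cdh6 and cdh11 fell. Of 26 cadherin genes 8 were tested, of which 3 rose, 3 fell and 2 did not pass. That is 75% called, beside 33.5% of all genes tested. The 3 that rose have the most counts of the family. The E-cadherin gene cdh1 (ENSDARG00000102750) had 146 and 146 CPM with vehicle and 263 and 212 CPM with lipofermata, with log2 fold change 0.70 (SE 0.15, adjusted p = 0.0089). The N-cadherin gene cdh2 (ENSDARG00000018693), which mammalian hepatocytes express beside E-cadherin, had 265 and 206 CPM with vehicle and 319 and 328 CPM with lipofermata, with log2 fold change 0.46 (SE 0.16, adjusted p = 0.061). The ratio of cdh1 to cdh2 counts was 0.551 and 0.710 with vehicle and 0.823 and 0.645 with lipofermata, so the groups overlapped in the balance between them. The gene cdh17 (ENSDARG00000005112), whose mammalian counterpart is the liver-intestine cadherin and lacks the catenin-binding tail, had 37.1 and 42.1 CPM with vehicle and 63.5 and 55.4 CPM with lipofermata, a log2 fold change of 0.59 (adjusted p = 0.016). Without lipofermata replicate 1, none of the 3 passed (0.54 for cdh1, 0.48 for cdh2 and 0.49 for cdh17). For cdh2 the same held without lipofermata replicate 2 (0.44) and without vehicle replicate 2 (0.29).

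The 3 cadherin genes that fell each had a vehicle mean of 2.96 to 10.2 CPM. On their lipofermata libraries alone, cdh4 and cdh11 would not have had enough counts to be tested. The R-cadherin gene cdh4 (ENSDARG00000015002), known from neural tissue, had 3.27 and 3.10 CPM with vehicle and 0.600 and 0.438 CPM with lipofermata. It went from 97 to 20 counts, and its log2 fold change, -2.60 (SE 0.51, adjusted p = 0.0048), was the lowest of the tested junction genes. A gene as low with lipofermata was tested only if higher with vehicle, so this rank depends on the filter. The type II cadherin gene cdh6 (ENSDARG00000014522) had 8.65 and 11.8 CPM with vehicle and 2.70 and 4.27 CPM with lipofermata, with log2 fold change -1.55 (SE 0.30, adjusted p = 0.0047). The gene cdh11 (ENSDARG00000021442), a cadherin of mesenchymal cells, had 2.00 and 3.92 CPM with vehicle and 0.20 and 1.1 CPM with lipofermata, with log2 fold change -2.18 (SE 0.70, adjusted p = 0.045). That value was -1.41 without lipofermata replicate 1 and -1.63 without vehicle replicate 2, neither of which passed, and -3.82 without lipofermata replicate 2. The other tested cadherins, cdh22 (-1.20) and cdh30 (0.43), did not pass, and over the left-out libraries they ran from -2.84 to -0.47 and from -0.28 to 1.82.

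Among the catenins that attach to cadherins, the delta-catenin gene ctnnd1 (ENSDARG00000078233) had 82.4 and 75.9 CPM with vehicle and 104 and 99.6 CPM with lipofermata. The log2 fold change was 0.36 (SE 0.14, adjusted p = 0.083), which did not pass with DESeq2 (0.37, adjusted p = 0.11, within a range over the alternatives of 0.0083 to 0.43), without vehicle replicate 2 (0.30), or without lipofermata replicate 1 (0.33) or replicate 2 (0.39). The epithelial alpha-catenin gene ctnna1 (ENSDARG00000102441) had 146 and 135 CPM with vehicle and 156 and 162 CPM with lipofermata and did not pass (log2 fold change 0.18, adjusted p = 0.39). Its counts relative to those of cdh1 were 1.0 and 0.921 with vehicle and 0.595 and 0.764 with lipofermata. The neuronal alpha-catenin gene ctnna2 (ENSDARG00000024785) fell, from 2.61 and 1.96 CPM to 0.550 and 0.767 CPM, with log2 fold change -1.80 (SE 0.54, adjusted p = 0.034). It did not pass when vehicle replicate 1 (-1.56), lipofermata replicate 1 (-1.57) or lipofermata replicate 2 (-2.04) was left out. The alpha-catulin gene ctnnal1 (ENSDARG00000018162) had 1.66 and 4.08 CPM with vehicle and 3.10 and 3.34 CPM with lipofermata, with overlapping groups (log2 fold change 0.20, adjusted p = 0.78, and -0.33 without vehicle replicate 1).

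Connexins showed the lowest p of the tested junction genes, in cx43. The largest rise was also a connexin, cx44.2, a rank that depends on the count filter. Of 32 connexin genes, 11 were tested, of which 3 rose, 2 fell and 6 did not pass. The called share was 45.5%, beside 33.5% of all genes tested. The gene cx43 (ENSDARG00000041799, gja1b in RefSeq) encodes the connexin of heart, bone and vessels, which mammalian liver carries in its non-parenchymal cells. It had 29.2 and 31.3 CPM with vehicle and 8.50 and 6.14 CPM with lipofermata. This is 0.243 times the vehicle level, with log2 fold change -2.04 (SE 0.19, adjusted p = 0.00011), with -1.65 to -2.30 over all alternatives tried. Of all connexin counts in a library, cx43 took 6.92% (95% Wilson interval 6.37 to 7.51) and 6.35% (5.76 to 7.0) with vehicle, and 1.5% (1.29 to 1.74) and 1.02% (0.848 to 1.22) with lipofermata. These intervals cover counting error only and leave out the spread between replicates.

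The connexin genes with the most counts did not fall. The gene cx28.9 (ENSDARG00000041797, gja12.1 in RefSeq) had 224 and 281 CPM with vehicle and 275 and 314 CPM with lipofermata, with overlapping groups (log2 fold change 0.22, SE 0.16, adjusted p = 0.35). The gene cx32.3 (ENSDARG00000041787, gja13.1 in RefSeq) had 138 and 156 CPM with vehicle and 222 and 231 CPM with lipofermata, with log2 fold change 0.62 (SE 0.14, adjusted p = 0.011). It did not pass without lipofermata replicate 1 (0.65) or replicate 2 (0.59). In RefSeq's gene order cx43, cx32.2, cx28.9, cx32.3 and cx34.5 lie within a stretch of 7 protein-coding genes. Within this stretch cx43 fell, cx32.3 rose, and cx32.2 (-0.28), cx28.9 and cx34.5 (6 and 41 counts) did not pass. Single libraries changed whether these 3 genes passed, and for cx28.9 and cx34.5 the processing did so too. The direction of cx32.2 turned, without passing, with total-count scaling (0.06), limma voom (0.13) and the replicate block (0.10). With total-count scaling cx28.9 (0.62) and cx34.5 (2.70) passed, and cx34.5 also passed with limma voom, no filter and the replicate block. For cx32.2 the log2 fold change was 1.98 (adjusted p = 0.049 in edgeR) without vehicle replicate 1 and -1.06 (adjusted p = 0.068) without vehicle replicate 2, so that it passed in opposite directions, with a range of 0.049 to 0.96 over the alternatives. Without vehicle replicate 2, cx28.9 passed (0.40), and so did cx34.5, whose only vehicle counts lie in that library. The ratio of cx43 to cx32.3 counts was 0.211 and 0.201 with vehicle and 0.0383 and 0.0266 with lipofermata, which no scaling changes. The span of tbc1d32 overlaps cx28.9, cx32.3 and cx34.5 in RefSeq, and since the strand setting of the counting is not given, reads of overlapping genes cannot be told apart. The counts of tbc1d32 were 0.600 to 3.44 CPM, and its log2 fold change was -1.81.

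The gene cx30.3 (ENSDARG00000042707, gjb8 in RefSeq) rose from 15.8 and 12.7 CPM to 46.4 and 35.2 CPM. It was 2.86-fold higher, with log2 fold change 1.51 (SE 0.19, adjusted p = 0.00043), and every lipofermata library lay above every vehicle library. The gene cx44.2 (ENSDARG00000034207, gjc4a.1 in RefSeq) had 0.554 and 0.653 CPM with vehicle and 3.0 and 4.6 CPM with lipofermata, from 18 and 144 counts. Its log2 fold change, 2.65 (SE 0.49, adjusted p = 0.0035), was the highest of the tested junction genes. It cleared the count filter only through its lipofermata libraries. A gene as low with vehicle was tested only if high with lipofermata, so this rank depends on the filter. The gene cx39.4 (ENSDARG00000070357, gja4 in RefSeq), needed for pigment stripes in zebrafish and expressed in arterial endothelium in mammals, had 3.33 and 3.84 CPM with vehicle and 2.00 and 1.31 CPM with lipofermata. Its log2 fold change was -1.10 (adjusted p = 0.073), and it did not pass with DESeq2, with total-count scaling (-0.71), without vehicle replicate 2 (-1.0), or without lipofermata replicate 1 (-1.44) or replicate 2 (-0.83). The arterial connexin gene gja5a (-1.77, adjusted p = 0.14) and cx43.4 (0.71, adjusted p = 0.20) did not pass. For gja5a the value ran from -3.61 to -1.01 over the left-out libraries, and it passed with no filter (-1.76), without vehicle replicate 1 (-2.17) and without lipofermata replicate 1 (-3.61).

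Several genes that fell are known from cells other than hepatocytes, and many markers of endothelial, stellate and epidermal cells fell in the same libraries. Over all genes tested, 16.9% were lower and 16.6% higher. Of 10 endothelial markers 9 fell, with a summed level of 685 to 754 CPM with vehicle and 202 to 210 CPM with lipofermata, and none of them was at 0. One of them is cdh5, the cadherin of endothelial junctions that the naming rule leaves out, with 163 and 125 CPM against 43.3 and 44.2 CPM (log2 fold change -1.72, adjusted p = 0.00011). Of 7 tested markers of stellate cells and fibroblasts 5 fell (176 to 272 CPM summed with vehicle, 48.1 to 119 CPM with lipofermata). Of 7 tested epidermal markers 4 fell (338 to 416 CPM summed against 91.9 to 124 CPM, with ovgp1 at 0), and of 3 tested neuronal markers 1 fell (4.82 to 9.54 CPM summed against 4.27 to 4.80 CPM, with none at 0). Their part in the falls of cldn5b, cx43, cdh11, ctnna2 and the others was not tested, and in pooled livers fewer cells of a type and less RNA per cell cannot be told apart. Markers of epithelial cells of the bile ducts were mixed, with 2 of 7 higher, 2 lower and a summed level of 5041 to 5442 CPM against 4830 to 5001 CPM. Of 12 hepatocyte markers 7 fell and none rose.

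Other junction genes were taken from a separate list of 73 symbols, of which 67 were found and 56 tested. Among them 11 rose, 9 fell and 36 did not pass, beside 16.6% higher and 16.9% lower of all genes tested. The median was 0.04 on the log2 scale, beside -0.03 over all genes. With total-count scaling 26 were higher and 5 lower. Both beta-catenin genes, whose products link cadherins to alpha-catenin and act in Wnt signalling, rose. The gene ctnnb1 (ENSDARG00000014571) had 131 and 112 CPM with vehicle and 171 and 173 CPM with lipofermata (log2 fold change 0.50, adjusted p = 0.030), but did not pass without lipofermata replicate 1 (0.51) or replicate 2 (0.50). The gene ctnnb2 (ENSDARG00000023472) had 55.2 and 54.7 CPM against 92.7 and 86.2 CPM (0.70, adjusted p = 0.0049). The epithelial adhesion gene epcam, also a bile duct marker, rose from 65.8 and 39.6 CPM to 124 and 119 CPM (1.20, adjusted p = 0.0028). The apical polarity gene crb3b (1.07) and the nectin gene nectin1b (1.01) rose as well. The junctional adhesion molecules jam2a (-1.20) and jam2b (-1.19), which in mammals lie in endothelial junctions, fell, and jam2b did not pass without lipofermata replicate 2 (-0.82). Of the other junctional adhesion molecules, jam3a (-1.80) and jam3b (-1.16) fell, f11r.1 (0.70) rose and f11r.2 (0.32) did not pass. Desmosomes, which anchor keratin at the cell border, had 1 of 10 tested genes higher and 2 lower. Those lower were the periplakin gene ppl (-1.47), also one of the epidermal markers, and the plakophilin gene pkp3b (-0.58), which did not pass with total-count scaling (-0.20) or without lipofermata replicate 1 (-0.56) or replicate 2 (-0.59). Of 21 tested cytoplasmic and polarity partners, 17 did not pass the test. Without lipofermata replicate 1, 5 genes of the list rose and 3 fell, and without lipofermata replicate 2, 7 rose and 3 fell.

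Of the 22 junction genes that passed, 9 also passed in the same direction under each of the 10 alternatives tried. These were cx44.2, cx30.3, cldn2 and cldn15lb among the rises, and cldnh, cdh6, cx43, cldn5b and cdh4 among the falls. Of these, cx44.2 and cdh4 had enough counts to be tested only through the group where they were higher. All 22 kept their direction. The alternative that lost the most of these calls was leaving out lipofermata replicate 1, followed by lipofermata replicate 2. Leaving out a vehicle library lost fewer. Over the whole table fewer genes also passed without either lipofermata library, so such losses are not particular to the junction genes. The share of all called genes that passed under every alternative is not given here.

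**Figure D4:**
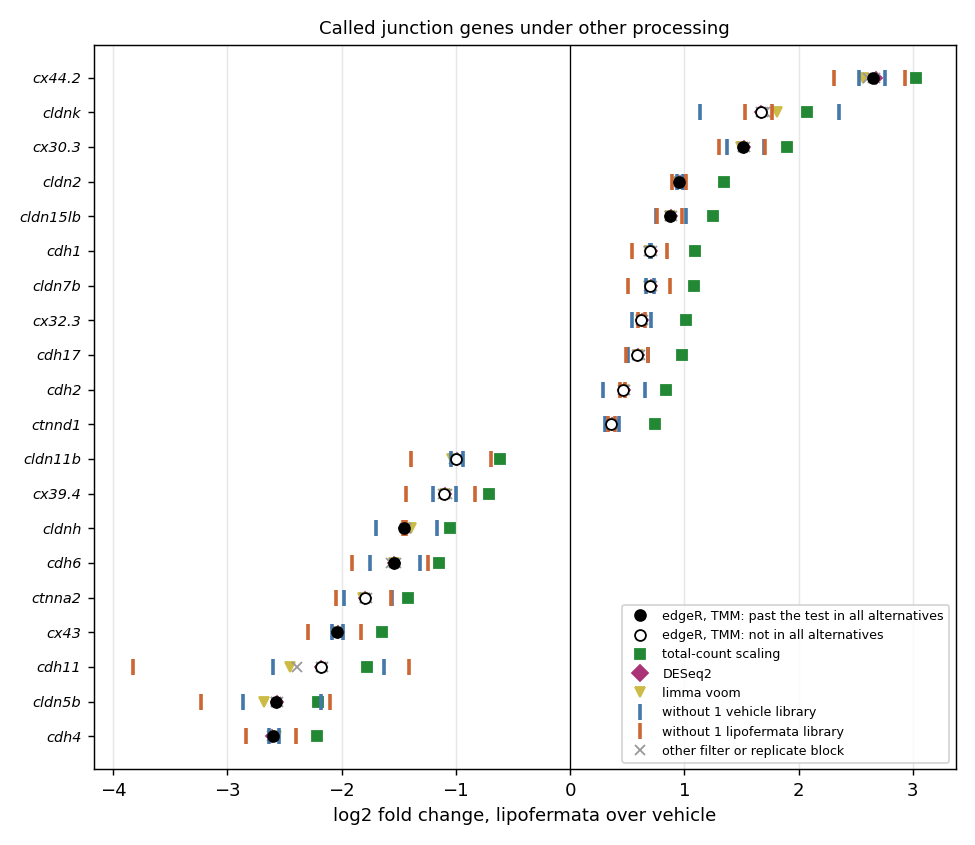
Log2 fold change (lipofermata over vehicle) of 20 called junction genes from edgeR with TMM scaling (circles) and under each of the 10 alternatives. Filled circles mark the 9 genes that passed in all of them, green squares give total-count scaling, which lies right of the circle for every gene shown, and bars give fits without 1 library.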

How the data were processed

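Polyadenylated RNA from 4 liver pools was made into directional libraries and sequenced as read pairs. HISAT2, featureCounts and the GRCz11 build are named in the submitters' processing notes; versions, annotation release and the strand setting used in counting were not stated. Raw, unnormalized counts per gene make up the deposited table. Of values from 1 to 20, 76.5% were even over all rows and 89.7% (104 of 116) in junction genes, so a pair may stand as 2 counts; counting intervals and floors cover counting error only and may then be too narrow. Counts were fitted in R 4.3.3 with edgeR 4.0.16 after filterByExpr (minimum count 10) and TMM scaling (factors 0.817 to 1.16), on all genes at once, with treatment as the only term. The standard error is the log2 fold change divided by the square root of F. The fits were run on simulated data with few changed genes, balanced in direction, which does not test the choice of scaling. Alternatives were DESeq2 1.42.0, limma 3.58.1 voom, total counts, a filter at 0.5 CPM, no filter, the replicate number as a block, and leaving out each library, where the lone sample is assumed to vary like the other group. Figures used Python 3.11.15 and matplotlib 3.10.9.

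Genes described in full are, per family, the 3 with the highest vehicle mean and up to 5 per direction with the smallest p; from the separate list, up to 4 per direction and ctnnb1. The vascular cadherin gene cdh5 is given as left out. Others given with values, namely tbc1d32, cldne, cldn15la, oclna, gja5a and cx43.4, were chosen after their values were seen. The genes and lists were chosen with earlier results of these data known. RefSeq names and gene order are from GRCz12tu, and 100 of 105 genes matched, 73 by symbol and 27 by synonym. Of these, 30 overlap another protein-coding gene, 8 of them called, among them cldn2, cldn7b, cdh1, cdh4, ctnna2, cx32.3 and cx39.4. With the strand setting not stated, their reads cannot be told apart from those of the overlapping gene. Sequences and coordinates were not used here, and sequence similarity between paralogs, which could split reads, was not measured. The rule for genes described in full also selects 2 called genes that are not reported here; they stay in the fits and in the counts over all junction genes, and are left out of the figures.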

Additional observations from a re-analysis of the deposited data

How the results depend on the processing

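With total-count scaling, 5092 genes were higher and 1182 lower over the whole table (2479 and 2527 with TMM), 21 junction genes were higher (12 with TMM), and 26 genes of the separate list were higher and 5 lower (11 and 9 with TMM). Leaving out each replicate in turn gave 1128 to 3115 genes higher and 1284 to 2898 lower in the whole table, 4 to 14 junction genes higher and 7 to 13 lower, and 5 to 15 genes of the separate list higher and 3 to 8 lower. The direction of tjp1a turned with total-count scaling (0.10) and that of ctnnal1 without vehicle replicate 1 (-0.33, in a range of -0.33 to 0.95 over the left-out libraries). Of the 25 tested junction genes that did not pass, 11 turned direction under at least 1 alternative and 14 passed under at least 1. The gene cx32.2 was the 1 that passed in the turned direction (1.98 without vehicle replicate 1). With no filter, the median of the junction genes was -0.15. With total counts, cdh1 had a log2 fold change of 1.09, cldn7b 1.09, cx32.3 1.02, cdh17 0.98, cdh2 0.84 and ctnnd1 0.75, and cldnc (0.75), ctnna1 (0.56) and cx28.9 (0.62) passed. Same-numbered replicates deviated from their group means with a correlation of 0.033, so the numbers were not taken as pairs; with the replicate block 14 junction genes were higher and 11 lower. DESeq2 gave 11 and 8. At 14997821 to 19368695 counts per library, the 33 junction genes with 2 to 33 counts were removed by the count filter. They were fitted only under some alternatives. With no filter, for example, cldne (2.93, adjusted p = 0.20 in edgeR) and gja5b (-2.12, adjusted p = 0.19) did not pass. Without vehicle replicate 2 both passed (6.46 for cldne and -2.58 for gja5b), and gja5b also did without lipofermata replicate 1 (-6.73). The values 6.46 and -6.73 rest on 0 counts in the group left with a single library.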
